A study of Mus musculus with 6 samples.

Results

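Goblet cells are the mucus-producing cells of the intestinal epithelium, and 10 genes of their mucus and secretory programme were followed by gene symbol in jejunal epithelial cells of mice labelled as carrying a doxycycline-driven MSI2 transgene. Of these 10 genes, 8 were read by a probe set that names 1 gene (Muc2, Muc13, Tff3, Agr2, Spdef, Zg16, Creb3l1 and Spink4), out of 19933 genes read in that way. Fcgbp, a protein of the mucus layer that binds the Fc part of IgG, was named only by 3 probe sets that name other genes too, and the serine protease gene Klk1 was named by none here, so neither has a value below. The 3 control mice carried the doxycycline-dependent transactivator M2rtTA at the Rosa26 locus (R26-M2rtTA), and the 3 mice labelled transgenic carried the same transactivator with a TRE-MSI2 transgene (TRE-MSI2::R26-M2rtTA). All 6 mice drank doxycycline for 24 hours, so the controls share both the transactivator and the drug. Rosa26 is active in most cell types, and nothing in the labels restricts the transactivator to the epithelium. The age and strain of the mice are not given in the sources used here. Total epithelial cells were taken without a sort for goblet cells, and each mouse gave 1 Affymetrix Gene 1.0 ST array. The labels call the arrays biological replicates, and 3 arrays per group limit the precision.

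Goblet cells arise in the secretory lineage of the crypt, store polymeric mucin in apical granules and release it into the lumen, where it swells into the gel that keeps bacteria off the epithelium. The mucin is folded and joined by disulfide bonds in the endoplasmic reticulum, sugar chains are added to its serines and threonines in the Golgi, and small proteins such as trefoil factors and lectins leave the cell with it. MSI2 belongs to the Musashi RNA-binding proteins, which bind messenger RNAs and alter their translation or stability.

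The RefSeq table of promoter sequences (build GRCm38.p6) held 4 of the 8 measured genes. The 250 bases before the start that the table gives are shown for 3 of them, the secreted mucin, its folding factor and the lineage factor, because these steps of the programme are set side by side below. The table's start for Spdef, which is on the minus strand, lies inside the gene's span in the same build (to position 27731003), so that window precedes an internal transcript start. Capitals mark matches on either strand to 9 short words picked from knowledge of intestinal and secretory factors and settled after a first look at goblet gene promoters, namely the E-box core CAGCTG, the GATA-type word AGATAA, the Cdx-type word TTTATG, the bZIP core ACGTG, the forkhead words TGTTTAC and TGTTTGC, the ETS-type word CCGGAT, the HNF1-type word GTTAAT and the TATA box TATAAA.
Muc2, chr7:141690090-141690339, plus strand: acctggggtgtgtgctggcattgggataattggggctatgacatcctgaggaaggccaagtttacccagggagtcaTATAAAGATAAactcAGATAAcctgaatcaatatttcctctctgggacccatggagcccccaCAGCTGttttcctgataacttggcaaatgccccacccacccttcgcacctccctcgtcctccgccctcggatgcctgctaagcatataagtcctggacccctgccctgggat
Agr2, chr12:35992675-35992924, plus strand: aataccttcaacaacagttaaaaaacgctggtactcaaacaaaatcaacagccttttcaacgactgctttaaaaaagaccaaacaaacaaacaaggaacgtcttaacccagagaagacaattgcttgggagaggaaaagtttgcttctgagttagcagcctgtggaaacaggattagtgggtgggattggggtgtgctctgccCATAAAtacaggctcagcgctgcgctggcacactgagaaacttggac
Spdef, chr17:27728952-27729201, minus strand: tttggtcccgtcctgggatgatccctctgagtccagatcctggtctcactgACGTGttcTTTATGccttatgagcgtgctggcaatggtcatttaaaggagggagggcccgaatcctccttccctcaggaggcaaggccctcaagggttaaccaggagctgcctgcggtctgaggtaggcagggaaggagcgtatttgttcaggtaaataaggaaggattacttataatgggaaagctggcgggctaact
The Muc2 window held the E-box core from 112 to 107 bases before the start, 2 copies of the GATA-type word that began 169 and 159 bases before it, and a TATA box word that began 174 bases before it and shares its last base with the first GATA-type word. The E-box core occurred in 13.0% of all 32851 windows of this length, the GATA-type word in 9.99% and the TATA box word in 12.4%. The Agr2 window held the Cdx-type word on its reverse strand, from 47 to 42 bases before the start, and the Spdef window held it from 191 bases before the start, beside the bZIP core from 199. The Cdx-type word occurred in 10.8% of windows and the bZIP core in 16.6%. A match of this kind is a description of the letters, not of a bound site. The forkhead words (3.17% and 4.30% of windows, in the order above), the ETS-type word (4.94%) and the HNF1-type word (6.43%) were not in these 3 windows.

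The labels were checked first on the Musashi genes. The mouse Msi2 probe set did not separate the groups, since control replicate 1 read 11.30 on the log2 scale against 9.53 and 9.32 in the other controls and 11.23, 10.58 and 11.44 in the libraries labelled transgenic (log2 fold change 1.03 ± 0.55, SE, limma adjusted p = 0.257). Msi2 passed as higher without control replicate 1 (1.66, adjusted p = 0.00958) and with array weights (1.62, adjusted p = 0.0129). Msi1 read 12.82 to 13.53 in the libraries labelled transgenic and 7.20 to 7.97 in the controls (50.7-fold higher, adjusted p = 0.000818). The Musashi gene whose groups lay apart was thus Msi1, not the gene that the label names, and which transcript the transgene makes was not tested. Directions below therefore follow the labels of the libraries. The array medians were 6.42 to 6.46, and control replicates 2 and 3 correlated with each other over all genes by 0.996 but with control replicate 1 by 0.978 and 0.979. Since control replicate 1 stood apart, genes named below whose call changes without it are also given without it.

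None of the 8 goblet cell genes passed the test between the groups after 24 hours of doxycycline (limma, Benjamini-Hochberg adjusted p under 0.05 over all genes). Of all genes, 9.65% passed as lower and 8.97% as higher in the libraries labelled transgenic, and 3 of the 8 goblet genes had an unadjusted p under 0.05. The means of 7 of the 8 were lower and that of Muc13 was higher, with a median log2 fold change of -0.39, where 45.8% of all genes had lower means and the median of all genes was 0.021. The sign of Agr2 turned with renewed quantile normalization, and that of Muc13 without control replicate 1. The differences ran from -1.07 for Tff3 to 0.12 for Muc13. Every value of the 8 genes was at least 7.22, above the 4.07 to 5.06 read by Xist in males and by Y-linked genes in females. Their highest value was 13.79, where the highest of any gene was 14.37, and changes of very bright probe sets are compressed. In cells isolated in bulk, fewer goblet cells and less RNA per goblet cell cannot be told apart.

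**Figure D1:**
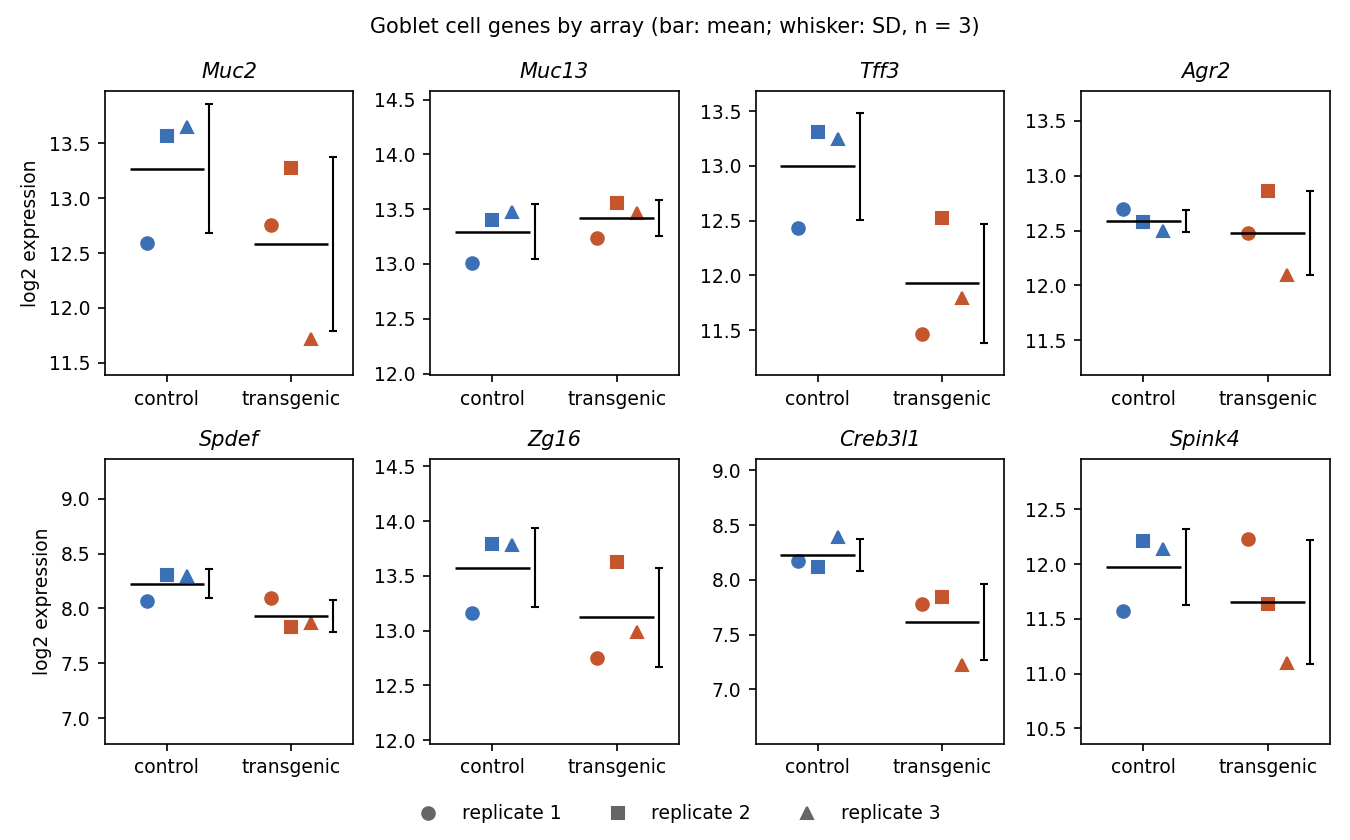
Log2 expression (vertical axes, each spanning 2.6 log2 units) of the 8 measured goblet cell genes in the 3 control and 3 transgenic arrays, with symbols for the replicate number, bars for means and whiskers for SDs (n = 3). Creb3l1 is the gene whose groups do not overlap, and control replicate 1 lies below the other controls in 6 of the 8 genes.

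Among the secreted cargo, Muc2 encodes the gel-forming mucin that makes up the mucus of the intestine. It read 12.59, 13.57 and 13.65 on the log2 scale in control replicates 1, 2 and 3, and 12.76, 13.28 and 11.71 in the libraries labelled transgenic. The groups overlapped, with control replicate 1 below 2 of the 3 transgenic values, and transgenic replicate 3 was the lowest of the 6 arrays. The means were 13.27 ± 0.59 and 12.58 ± 0.80 (SD, n = 3 each), a log2 fold change of -0.69 ± 0.46 (SE) that did not pass (adjusted p = 0.374). The 95% interval of the difference reached from 3.52-fold lower to 1.36-fold higher, so a 2-fold lower level of Muc2 was within it. Without control replicate 1 the difference was -1.03 (adjusted p = 0.153), and without transgenic replicate 3 it was -0.25 (adjusted p = 0.754).

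Tff3, the trefoil peptide that goblet cells secrete with the mucin and that takes part in repair of the epithelium, had the largest difference of the 8 genes. Its control values were 12.43, 13.31 and 13.24, and its values in the libraries labelled transgenic were 11.46, 12.53 and 11.79. The groups met at control replicate 1 and transgenic replicate 2, and the other 2 transgenic values lay below every control. The mean was 2.10-fold lower, with a log2 fold change of -1.07 ± 0.35 (SE) and an adjusted p of 0.0833. Tff3 passed as lower with the replicate number as a block (adjusted p = 0.0107), where 13.1% of all genes passed as lower and 12.7% as higher. It also passed without control replicate 1 (log2 fold change -1.35, adjusted p = 0.0266), where 14.4% and 13.4% of all genes did, and without transgenic replicate 2 (-1.37, adjusted p = 0.0336). In both of the first 2 settings Tff3 was the single goblet gene of the 8 that passed.

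Zg16, a lectin of the mucus that binds Gram-positive bacteria, read 13.16, 13.79 and 13.78 in the controls and 12.75, 13.62 and 12.99 in the libraries labelled transgenic. Transgenic replicate 2 lay among the controls, and the other 2 transgenic values lay below all 3 of them. The log2 fold change was -0.45 ± 0.28 (SE, adjusted p = 0.320), with a 95% interval from -1.12 to 0.22. It was -0.66 without control replicate 1 (adjusted p = 0.120). Spink4, a Kazal-type serine protease inhibitor of goblet cells, read 11.57, 12.21 and 12.14 in the controls against 12.23, 11.63 and 11.10. Its highest value of the 6 was in transgenic replicate 1 and its lowest in transgenic replicate 3, so the transgenic values spanned those of the controls. The difference was -0.32 ± 0.32 (SE, adjusted p = 0.549), -0.52 without control replicate 1 (adjusted p = 0.301) and -0.045 without transgenic replicate 3 (adjusted p = 0.946).

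The transmembrane mucin Muc13, which coats the apical surface of enterocytes as well as goblet cells, had the smallest difference among the mucus proteins. It read 13.01, 13.40 and 13.47 in the controls and 13.24, 13.56 and 13.47 in the libraries labelled transgenic. All but control replicate 1 lay within a narrow span, and the groups overlapped. The log2 fold change was 0.12 ± 0.15 (SE, adjusted p = 0.642), and without control replicate 1 it was -0.019 (adjusted p = 0.933). Its 95% interval of -0.25 to 0.49 excluded a 2-fold difference in either direction on this array's scale. The highest value of any gene on these arrays was 14.37, and changes of very bright probe sets are compressed. A larger difference in Muc13 RNA is therefore not excluded.

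Agr2, the protein disulfide isomerase that mucin folding in the endoplasmic reticulum depends on, read 12.70, 12.58 and 12.49 in the controls, the narrowest control spread of the 8 genes (SD 0.10). The libraries labelled transgenic read 12.48, 12.86 and 12.10, on both sides of the controls. The log2 fold change of -0.11 ± 0.19 (SE) did not pass (adjusted p = 0.757), and its 95% interval ran from -0.58 to 0.36. Its sign turned with renewed quantile normalization (0.044) and without transgenic replicate 3 (0.081), so no direction is given for it. Agr2 also differed from the cargo genes in that control replicate 1 was its highest control.

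Of the 2 transcription factors, Creb3l1 is an endoplasmic reticulum-bound bZIP factor that is cleaved to enter the nucleus and promotes terminal goblet maturation. Creb3l1 read 8.17, 8.12 and 8.39 in the controls and 7.78, 7.85 and 7.22 in the libraries labelled transgenic. All 3 transgenic values lay below all 3 controls, which no other of the 8 genes showed and which 17.5% of all genes did in this direction and 19.5% in the other. The mean was 1.53-fold lower, with a log2 fold change of -0.61 ± 0.18 (SE). It did not pass (adjusted p = 0.0686), nor did it with the replicate block (0.0878) or without control replicate 1 (0.0829), and its exact two-sided permutation test gave p = 0.1, the smallest that 3 against 3 arrays allow. Spdef, the ETS factor that drives maturation of goblet and Paneth cells, read 8.07, 8.30 and 8.30 in the controls and 8.10, 7.83 and 7.87 in the libraries labelled transgenic. Transgenic replicates 2 and 3 lay below every control, while transgenic replicate 1 lay just above control replicate 1. The log2 fold change was -0.29 ± 0.11 (SE, adjusted p = 0.126), and -0.37 without control replicate 1 (adjusted p = 0.0565). For the other 6 genes the exact permutation test gave p values between 0.2 and 0.7.

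**Figure D2:**
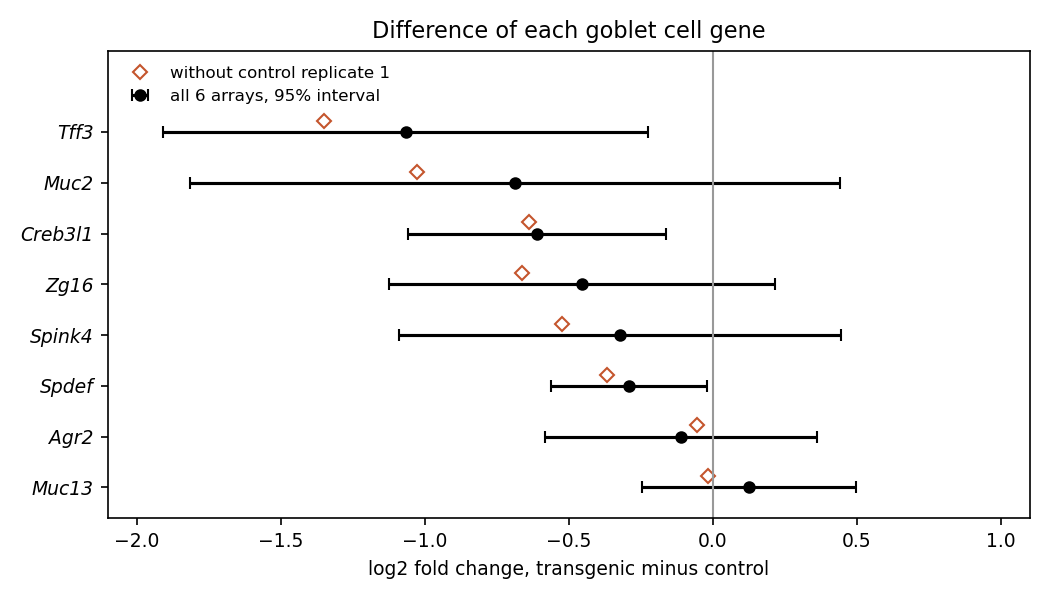
Log2 fold change (transgenic minus control, horizontal axis) of each goblet cell gene with its 95% limma interval (black), and the same difference without control replicate 1 (open diamonds). The intervals of Tff3, Creb3l1 and Spdef lie below 0 before adjustment for multiple testing, and the other 5 span it.

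The arrays of a group did not carry the goblet genes to the same degree. Relative to the control mean, the median of the 8 genes was -0.29, -0.17 and -0.73 in transgenic replicates 1, 2 and 3. Transgenic replicate 3 lay below every control in 7 of the 8 genes, transgenic replicate 1 in 4 and transgenic replicate 2 in 2, Spdef and Creb3l1. The shares of all genes that did so in each array were not counted. These counts therefore describe the arrays and are not read as particular to the goblet genes. Transgenic replicate 2 had the highest transgenic value in 6 of the 8. Control replicate 1 lay below the other 2 controls in 6 of the 8 genes, all but Agr2 and Creb3l1, and its median over the 8 was 0.51 lower than theirs (-0.51). Control replicate 1 also stood apart over all genes, as given above, so its place here is not particular to the goblet genes. The plot of values by array shows this overlap of control replicate 1 with the transgenic arrays.

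The genes whose values over the 6 arrays were most like the mean of the 8, each centred on its own mean, were Capn8 (Pearson r = 0.997), Lrrc29 (0.996), Tctn1 (0.994), Atoh1 (0.992) and Gm4779 (0.989). These correlations are a description over 6 arrays that share groups and processing, and 84 of 19925 other genes had an r over 0.95. Capn8, a calpain of mucous cells, and Atoh1, the factor that commits crypt cells to the secretory lineage, also stood in the lists of other mucus and secretion genes. Atoh1 read 8.78, 9.53 and 9.73 in the controls and 8.76, 9.20 and 8.08 in the libraries labelled transgenic, and its difference of -0.67 ± 0.36 (SE) did not pass (adjusted p = 0.254). Its order of arrays was that of Muc2 except that control replicate 1 and transgenic replicate 1 changed places.

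Around these genes, 68 other genes of mucins, secreted mucus proteins, lineage factors, folding and granule release, and O-glycan synthesis were listed, and 66 were measured. The lists were chosen with earlier results of these data known, so their shares describe these lists only. Of the 66, 12 passed as lower and 6 as higher in the libraries labelled transgenic, shares of 18.2% and 9.09% beside the 9.65% and 8.97% of all genes. When control replicate 1, 2 or 3 was left out, the lower genes numbered 20, 4 and 3 in that order, where 14.4%, 2.51% and 2.39% of all genes passed as lower. When transgenic replicate 1, 2 or 3 was left out they numbered 5, 13 and 5, beside 3.57%, 9.49% and 2.76% of all genes, so the calls of all genes fell in the same fits as those of the lists. Females were 2 of the 3 controls and 1 of the 3 transgenic mice, and in a fit that blocked for sex 6 of the 66 were lower and 6 higher, beside 5.47% and 5.36% of all genes. The higher genes numbered 4 without control replicate 3 or without transgenic replicate 3, 5 without control replicate 2 and 6 in the other 3 fits with an array left out. The shares of all genes that passed as higher were 13.4%, 2.39% and 2.39% without control replicates 1, 2 and 3, and 3.31%, 11.0% and 2.62% without transgenic replicates 1, 2 and 3. Many of these genes are also expressed in epithelial cells other than goblet cells.

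Among 9 other mucins, the transmembrane mucin Muc4 fell, by 2.13 ± 0.32 (SE) on the log2 scale (adjusted p = 0.0109, and 0.0513 without control replicate 3). The abundant transmembrane mucin Muc3 was at 0.39 ± 0.17 (adjusted p = 0.179), and it passed as higher when the replicate number was a block (0.0392). The gel-forming mucin Muc5b, which is typical of airways, was at 0.11 ± 0.07. Muc1, Muc5ac, Muc5b, Muc6 and Muc20 averaged 5.06 to 5.48 over the arrays, near the upper end of the 4.07 to 5.06 given above for absent transcripts. Of the 66 genes, Muc15, Muc16 and the secreted protein gene Sval1 read at or below 5.06 in every array. Among 14 other secreted proteins, the chemokine gene Ccl6 fell by 2.02 ± 0.22 (adjusted p = 0.00477), while the antibacterial surface protein Lypd8 was at -0.19 ± 0.09 and the scavenger receptor Dmbt1 at 0.11 ± 0.07, neither of which passed. Clca1, a protease-like protein of the mucus, was at -1.44 ± 0.56 (adjusted p = 0.132) and passed as lower under the replicate block (0.0127) and without control replicate 1 (-1.91, adjusted p = 0.0375). The tryptase Tpsg1 passed as lower in the same fits (0.0362 and 0.00442). Both were chosen after their values were seen.

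Among 9 lineage factors, the forkhead factor Foxa1 rose by 1.27 ± 0.18 (adjusted p = 0.00973) and Creb3l4, a relative of Creb3l1, fell by 1.33 ± 0.30 (adjusted p = 0.0308, and 0.113 without control replicate 3). Foxa1 passed in all 14 alternatives of the fit, and Creb3l4 lost its call without each array except control replicate 1. Xbp1, a regulator of secretory capacity, was at 0.23 ± 0.16 and Klf4, a factor of goblet differentiation, at 0.33 ± 0.50, and neither passed. Creb3l1 and Creb3l4 thus both had lower values in every library labelled transgenic than in any control, with Creb3l4 at 7.14, 8.27 and 8.16 in the controls and 6.52, 6.62 and 6.43 in the others.

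The name folding and granule release is that of the list, and the part of each gene in these steps was not tested. This list held 21 measured genes, of which 7 fell and none rose, a share of 33.3% beside 9.65% of all genes that passed as lower. The list was chosen with earlier results of these data known, so its share may reflect that choice. These were the inflammasome sensor Nlrp6, which is known for a part in mucin granule release, at -2.47 ± 0.29 (SE, adjusted p = 0.00605), Bcas1 at -2.12 ± 0.44 (0.0242), Hepacam2 at -2.03 ± 0.31 (0.0117), the calpain Capn9 at -1.71 ± 0.45 (0.0468), the transporter Slc12a8 at -1.05 ± 0.13 (0.00668), the syntaxin-binding protein Stxbp2 at -0.65 ± 0.17 (0.0482) and the granule GTPase Rab3d at -0.54 ± 0.13 (0.0399). Nlrp6 read 11.15, 11.08 and 11.01 in the controls and 8.15, 9.31 and 8.38 in the libraries labelled transgenic, so its groups lay well apart, control replicate 1 included. Tspan13 was at -0.26 ± 0.29 and the COPII coat subunit Sec24d at 0.13 ± 0.31. The list's median was -0.54 and 20 of its 21 genes had lower means. Nlrp6 and Slc12a8 passed in all 14 alternatives. The calls of Bcas1, Capn9 and Stxbp2 were lost without control replicate 2, control replicate 3, transgenic replicate 1 or transgenic replicate 3, that of Rab3d also without transgenic replicate 2, and that of Hepacam2 without control replicate 2, control replicate 3 or transgenic replicate 3. The highest adjusted p values were 0.0908 for Bcas1, 0.0542 for Hepacam2 and 0.155 for Capn9 without transgenic replicate 3, and 0.157 for Stxbp2 and 0.135 for Rab3d without control replicate 3. The calls of Bcas1 (0.0508), Capn9 (0.0631), Stxbp2 (0.0689) and Rab3d (0.0508) were lost as well when sex was the block, which left 3 of the 7. The call of Rab3d was also lost with the replicate block (0.0587), and the granule adaptor Mlph, chosen after its values were seen, passed as lower there (0.0488) and without control replicate 1 (-1.40, adjusted p = 0.0161). Over the list, 8 genes fell without control replicate 1 or transgenic replicate 2, 3 without transgenic replicate 1 or 3, and 2 without control replicate 2 or 3, in fits where the shares of all genes were those given above.

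Of 13 enzymes that build mucin O-glycans, 5 passed as higher, a share of 38.5% beside 8.97% of all genes. The 2 that passed as lower were a share of 15.4%, beside 9.65% of all genes. The fucosyltransferase Fut2, which adds terminal fucose, rose by 3.28 ± 0.54 (SE, adjusted p = 0.0138), from 7.09, 8.39 and 8.15 in the controls to 10.47, 12.20 and 10.79. Of the branching enzymes of the Gcnt family, Gcnt3 rose by 1.90 ± 0.14 (0.00186) and Gcnt1 by 1.60 ± 0.27 (0.0153), while Gcnt4 fell by 1.07 ± 0.26 (0.0374). Of the enzymes that start the chain, Galnt3, which attaches the first sugar, rose by 1.69 ± 0.13 (0.00224) and Galnt4 fell by 0.27 ± 0.07 (0.0440). C1galt1, which extends the first sugar to core 1, rose by 1.16 ± 0.13 (0.00524). The sialyltransferase St3gal4 was at -1.34 ± 0.50 (adjusted p = 0.118, but 0.00556 under the replicate block) and Galnt7 at -0.57 ± 0.19 (0.0836, and 0.00590 without control replicate 1). Galnt3, C1galt1 and Gcnt3 passed in all 14 alternatives. Without control replicate 3 the adjusted p rose to 0.0563 for Fut2, 0.0671 for Gcnt1 and 0.132 for Gcnt4. Fut2 and Gcnt1 also lost their calls without transgenic replicate 3 (0.0527 and 0.0649) and Gcnt1 without control replicate 2 (0.0586), and that of Galnt4 rose to 0.146 without transgenic replicate 1 and to 0.0730 with the replicate block. Galnt4 lost its call without each of the 6 arrays in turn, and neither lower enzyme passed without control replicate 2, control replicate 3, transgenic replicate 1 or transgenic replicate 3. In all, Galnt4 lost its call in 11 of the 14 alternatives, with its highest adjusted p (0.172) under an intensity trend and robust estimation. With sex as a block both lower enzymes lost their calls (0.0758 for Gcnt4 and 0.0938 for Galnt4), and all 5 higher ones passed.

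**Figure D3:**
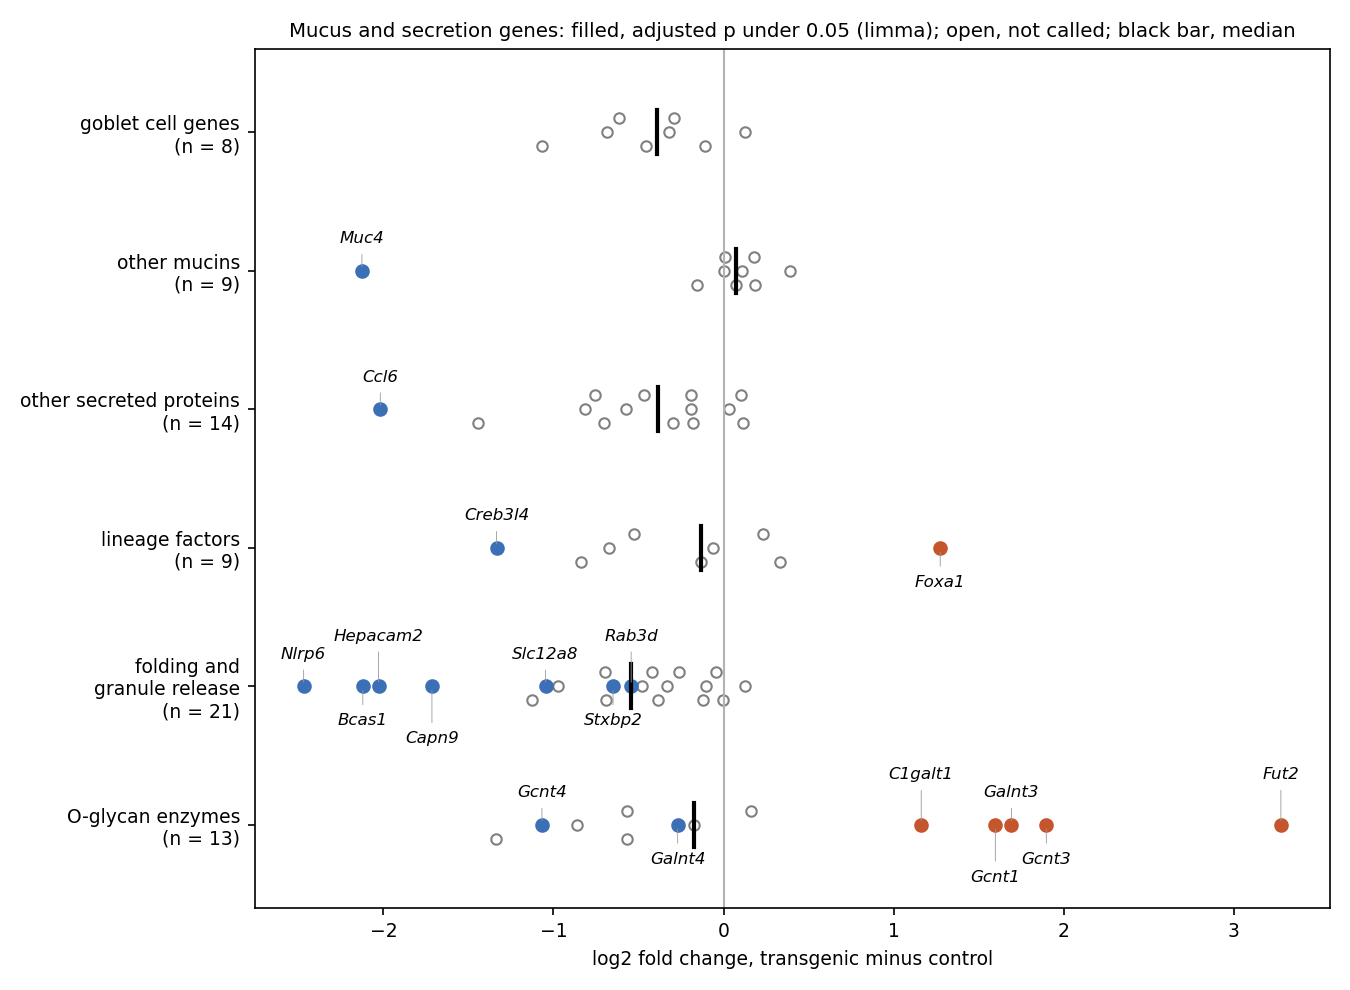
Log2 fold change (transgenic minus control, horizontal axis) of the 8 goblet cell genes and of 66 other genes in 5 lists (rows). Filled points passed in limma at an adjusted p under 0.05, open points did not, and black bars are list medians. No goblet cell gene is filled, the folding and release list has 7 filled points below 0, and the O-glycan enzymes have 5 above 0 and 2 below.

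Markers of other cells of the preparation were set beside these values. Of 12 enterocyte markers 11 had lower means and 1 passed as lower (8.33%, beside 9.65% of all genes), with a median of -0.73. The count was 8 with the replicate block, 0 when sex was the block, and 2 without control replicate 1. Of all genes, 13.1%, 5.47% and 14.4% passed as lower in these fits, in that order, and 12.7%, 5.36% and 13.4% as higher. The counts of the other marker lists below stand beside the same shares. The summed level of the enterocyte list, as a log2 value, was 16.16 to 16.96 in the controls and 15.49 to 16.58 in the libraries labelled transgenic, and that of the 8 goblet genes was 15.26 to 15.85 and 15.02 to 15.65. Control replicate 1 lay below the other controls in all 12 enterocyte markers, by a median difference of -0.84, as it did in 6 of the 8 goblet genes. Of 6 stem cell markers 3 passed as lower, with a median of -0.99 and a summed level of 12.86 to 13.06 in the controls and 11.00 to 11.26 in the others, so these groups lay apart. The stem cell count was 4 with the replicate block and 3 with sex as a block or without control replicate 1. Of 10 enteroendocrine markers 2 passed as lower (0 when sex was the block, 3 with the replicate block or without control replicate 1), with a summed level of 12.00 to 12.72 in the controls and 10.90 to 12.33 in the others. None of the 6 Paneth markers passed and their summed level was 15.58 to 15.72 and 15.45 to 15.61. The Paneth list includes Guca2b, which also stands among the other secreted proteins (means 13.57 in the controls and 13.39 in the libraries labelled transgenic). None of 8 tuft cell markers passed (9.49 to 10.26 and 9.32 to 10.14), though 1 was higher with the replicate block. Of 9 markers of intraepithelial T lymphocytes all 9 passed as lower (12.25 to 12.93 and 9.82 to 11.06), and 7 did with sex as a block. Markers of stroma (7 genes, 8.99 to 9.54 and 9.16 to 9.33) and of pancreatic acinar cells (5 genes, 8.23 to 8.29 and 8.25 to 8.40) had no gene that passed, though 1 stroma gene was higher without control replicate 1. The array scale has no 0, and the lowest acinar values were 4.23 in the controls and 4.35 in the libraries labelled transgenic, within the 4.07 to 5.06 given above. The part of these other cells in the goblet gene values was not tested.

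**Figure D4:**
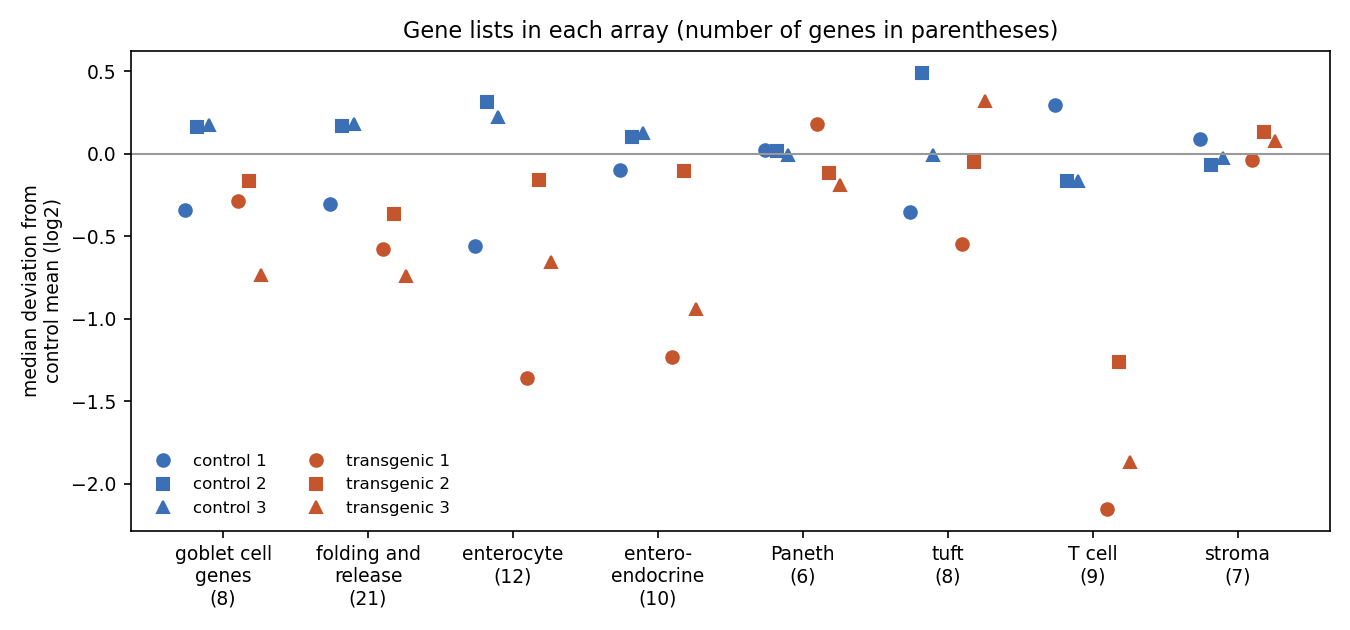
Median deviation from the control mean (log2, vertical axis) of each gene list in each array, with blue for control, red for transgenic and symbols for the replicate number. Control replicate 1 lies below the other controls in the goblet, folding and release, enterocyte, enteroendocrine and tuft lists. The T cell list separates the groups, from -2.15 to -1.26 in the transgenic arrays. By smaller gaps, so do the folding and release list (transgenic up to -0.36, controls from -0.31) and the enteroendocrine list (transgenic up to -0.11, controls from -0.10).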

How the data were processed

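Affymetrix Gene 1.0 ST arrays of 6 mice (3 control, 3 labelled transgenic) were used as the authors deposited them, as log2 expression per probe set with 1 column per array. Per the submitters' processing notes the values were made with Partek and RMA, with versions and settings not stated. The log2 scale was read from the values. RMA equalises the arrays, so a global shift in RNA is removed and changes of dim or very bright probe sets are compressed. Of 28350 probe sets, 21780 named 1 gene, and symbols were updated through a RefSeq table (GRCm38.p6), used for names and promoter sequences only, which matched 21689 of them. Where several such probe sets named a gene, the brightest on average was used.

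Groups were compared over all 19933 genes with limma 3.58.1 in R 4.3.3 (group as the only term, two-sided, Benjamini-Hochberg), with moderated standard errors, 95% intervals and no filter on dim genes. The fit was tested on simulated data. The goblet genes, the lists and the alternatives were chosen with earlier results of these data known. Named genes are the 10 goblet genes, Msi1 and Msi2, list genes that passed, the 2 brightest others per list and the 5 genes most alike, and Clca1, Tpsg1 and Mlph, chosen after their values were seen.

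Both groups are numbered 1 to 3. The main fit has no pairing, and a fit with the replicate number as a block is an alternative, given where it changes a call. Deviations from the group means of arrays with the same number correlated across genes by 0.52, 0.41 and 0.13. Such deviations sum to 0 within a group, control replicate 3 correlated more with transgenic replicate 2 (0.32), and the labels do not say what a number shares. The sex of each mouse was read from Xist and Y-linked genes and used as a block in an alternative. P-values set the group difference against the spread between arrays of a group, moderated over all genes. With 1 array per mouse, that spread joins differences between mice and between arrays.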

Additional observations from a re-analysis of the deposited data

How the results depend on the processing

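The count of goblet cell genes that passed as lower, 0 of 8, became 1 with the replicate block and 4 with array weights (Tff3, Spdef, Zg16 and Creb3l1, where 3442 of all genes passed as lower and 3630 as higher), 2 at a threshold of 0.1, and 0 to 1 with 1 array left out. No goblet gene passed as higher in any alternative. With 1 array left out the log2 fold change ran from -0.0187 to 0.216 for Muc13, negative without control replicate 1, and from -0.301 to 0.0808 for Agr2, positive without transgenic replicate 3. Agr2 was also positive (0.0440) with renewed quantile normalization, and the other 6 genes kept theirs in 14 alternatives. Of the other 66 genes, 28 passed as lower with array weights, 6 with sex as a block, 3 at a threshold of 0.01 and 3 to 20 with 1 array left out, against 12, and 4 to 6 passed as higher with 1 array left out. Of the 18 called among them, 7 were called in all 14 alternatives. Over all genes, 1923 passed as lower and 1787 as higher. These became 1091 and 1068 with sex as a block, 406 and 395 at a threshold of 0.01, 2735 and 2729 at 0.1, and 476 to 2879 and 476 to 2663 with 1 array left out, lowest without control replicate 3 (for the higher genes, equally without control replicate 2) and highest without control replicate 1. Fits with 1 array left out hold fewer arrays, and a lost call there need not mean a changed difference. With 3 arrays a group the intervals of Muc2, Tff3, Zg16, Creb3l1 and Spink4 include 2-fold lower values.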
